A study of Mus musculus with 9 samples.

Results

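The naive pluripotency transcription factors are a set of 10 genes, Zfp42, Klf2, Klf4, Klf5, Esrrb, Tfcp2l1, Tbx3, Nr0b1, Nr5a2 and Prdm14. They were chosen by name, and all 10 were measured, among 18193 genes on the array, by 24 probe sets out of 45101. A probe set is a group of short DNA probes that reads 1 transcript. Where a gene had more than 1, the brightest on average over the 9 arrays was used, and the rest served as a check. RNA was measured on 9 arrays in 3 groups, with 3 biological replicates each, all from cells labelled as strain C57BL/6. Epiblast stem cells (EpiSCs), which stand for the primed state after implantation, grew in N2B27 on plates coated with gelatine and serum. Their medium held Activin A (20 ng/ml) and basic FGF (12 ng/ml). They had received either vehicle or IWP2, which blocks the enzyme Porcupine and thereby the release of Wnt proteins. Embryonic stem cells (ESCs), which stand for the naive state, grew in N2B27 on gelatine. Their medium held LIF (1000 U/ml) together with Wnt3a (250 ng/ml). The signal of Y-linked genes differed too, with Eif2s3y at a mean log2 of 9.83 (vehicle), 9.82 (IWP2) and 2.29 (ESCs). Cell type, medium and sex chromosomes therefore changed together in every comparison with ESCs, and their parts cannot be told apart. The labels used here state neither the dose nor the duration of IWP2, nor how many cell lines stand behind the replicates, so p-values measure only the spread between these samples.

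Naive pluripotency rests on a network of factors that keep one another and the core factors Oct4, Sox2 and Nanog active. LIF acts through the kinase JAK and the factor STAT3 on Klf4 and Tfcp2l1, and Wnt signals act through beta-catenin, which relieves repression by the factor Tcf7l1, on targets such as Esrrb, Klf2, Nr5a2 and Tfcp2l1. In the embryo most of these factors are turned off as the epiblast implants, and primed cells carry on with the core factors and with others such as Otx2 and Pou3f1. Several of the 10 are also used outside the naive epiblast, for example Klf5, Esrrb and Nr5a2 in trophoblast or gut, and Tbx3 in endoderm.

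The labels were set beside markers. Replicates of 1 group correlated at 0.997 to 0.998 over all probe sets, and EpiSC with ESC arrays at 0.927 to 0.931. The core factor Pou5f1 (Oct4) had log2 signals of 11.30 ± 0.0609 in vehicle EpiSCs, 11.61 ± 0.143 in IWP2 EpiSCs and 12.12 ± 0.0557 in ESCs (SD, n = 3). It was high in all groups and so does not separate them. The primed growth factor gene Fgf5 stood at 10.86 ± 0.179, 8.38 ± 0.135 and 3.28 ± 0.193 (SD, n = 3) in the same order. Of 14 primed and formative factors, Fgf5 included, 10 were called lower and 4 higher in ESCs than with vehicle. All 16 measured naive state genes outside the set were called higher. Of all genes 27.9% were called lower and 38.7% higher. The lists were chosen with earlier results of these data known, so these counts are not an independent check of the labels.

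In ESCs all 10 factors were far above their EpiSC levels, and in EpiSCs they fell into groups. Klf2, Klf4, Klf5 and Tfcp2l1 had a signal above the floor of the array in vehicle EpiSCs and fell with IWP2, away from the ESC level. The vehicle mean of Klf5 was above that of 77.7% of probe sets, and those of Klf2, Klf4 and Tfcp2l1 were above 49.3%, 46.8% and 58.9%. At an adjusted p under 0.05 in a limma fit over all genes, all 10 were called higher in ESCs, as were 38.7% of all genes against vehicle and 35.2% against IWP2 (27.9% and 26.9% were called lower). With IWP2, 4 of 10 fell and 1, Prdm14, rose, while 16.8% of all genes were called lower and 16.6% higher. By the probe sets in use, Zfp42, Nr0b1, Tbx3 and Prdm14 lay under the floor on every array of both EpiSC groups, and Nr5a2 lay on its border. The probe sets of Klf5, Esrrb, Tfcp2l1, Tbx3 and Nr5a2 disagreed on whether the gene was above the floor in EpiSCs. The floor was set at 3.72, the lower quartile of all values, because the values carry no detection calls. A gene counted as above it when all 3 arrays of a group were. By this measure 5 of 10 factors, Klf2, Klf4, Klf5, Esrrb and Tfcp2l1, were above the floor in vehicle EpiSCs, and the same 5 were above it after IWP2.

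A stricter floor of 4.63 split these 5 further. It is the 95th percentile of 44 probe sets for olfactory receptor genes, which such cells are not known to use. By the probe sets in use, all 5 remained above it in vehicle EpiSCs, but only Klf5, Esrrb and Tfcp2l1 did so with IWP2. Klf2 and Klf4 were below it with IWP2, Klf2 only narrowly, at up to 4.62. The other Klf4 probe set straddled it with vehicle already (4.58, 4.73 and 4.59). With the median of all values, 5.24, as the floor, the genes above it were Klf5, Esrrb and Tfcp2l1 with vehicle and Klf5 and Esrrb with IWP2. Esrrb passed both floors by its probe set in use only. Its other probe sets had means of 3.40 and 3.95 with vehicle and 3.41 and 4.13 with IWP2. Counting a gene when any of its probe sets was above 3.72 gave 7 with vehicle and 7 with IWP2, adding Tbx3 and Nr5a2, and counting it only when all were gave 2 and 2, Klf2 and Klf4. In bulk RNA a low signal can come from few cells of a kind or from little RNA in each cell, and these cannot be told apart.

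**Figure D1:**
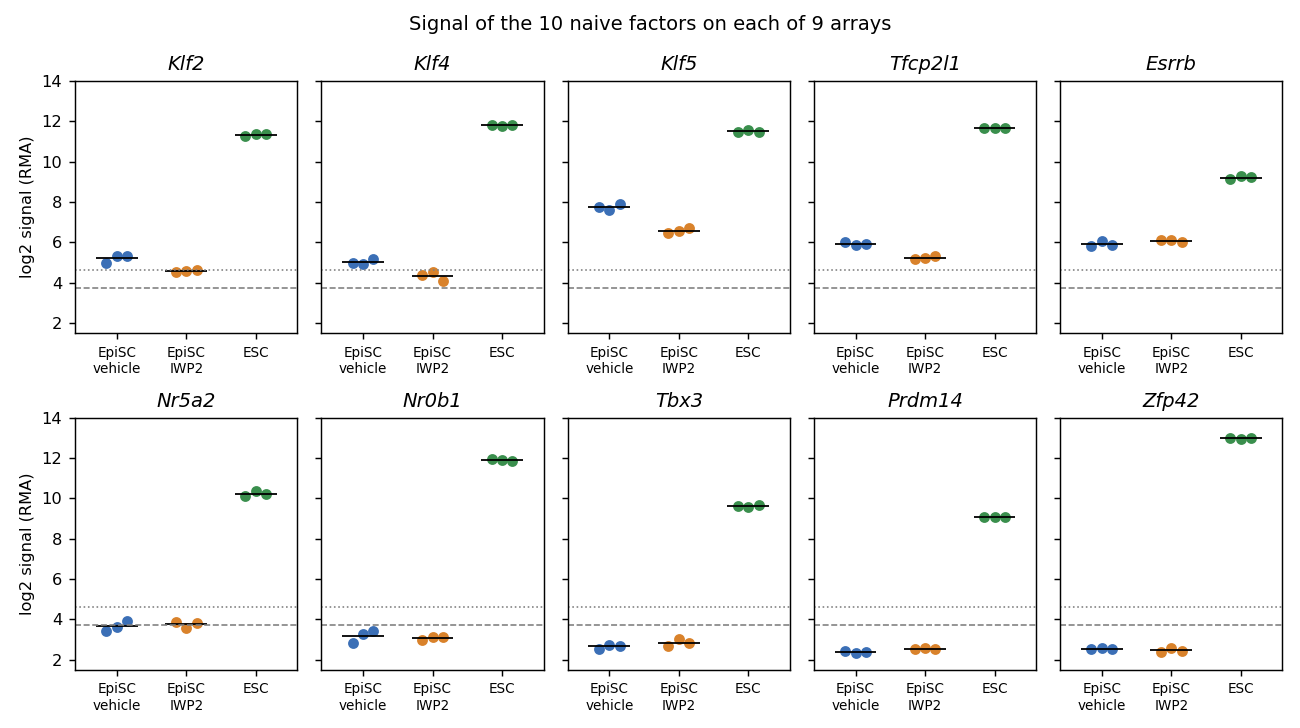
Log2 signal (y axis) of each of the 10 factors on the 9 arrays, 3 points per group, with the group mean as a bar. The dashed line is the lower quartile of all values (3.72) and the dotted line the olfactory receptor floor (4.63). ESC points lie above all EpiSC points in every panel, and with IWP2 the Klf2, Klf4, Klf5 and Tfcp2l1 points lie below those with vehicle.

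The promoters of the factors differed in their content of CpG dinucleotides, the sites of DNA methylation in mammals. RefSeq promoters of the assembly GRCm38.p6, from 250 bases before to 50 bases after the start, were found for 7 of the 10 factors. The 5 genes with a single promoter in that table are shown 5′ to 3′ with each CG in capitals, first 3 whose signal was above the floor in EpiSCs and then 2 at the floor.
Klf2, chr8:72318812-72319111, plus strand: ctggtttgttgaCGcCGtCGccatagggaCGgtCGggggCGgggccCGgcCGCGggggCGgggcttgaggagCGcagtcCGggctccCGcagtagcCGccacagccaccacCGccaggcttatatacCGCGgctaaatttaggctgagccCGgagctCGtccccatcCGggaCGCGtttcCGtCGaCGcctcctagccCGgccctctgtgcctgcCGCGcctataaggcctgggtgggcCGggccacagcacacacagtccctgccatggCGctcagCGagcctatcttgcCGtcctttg
Klf4, chr4:55532426-55532725, minus strand: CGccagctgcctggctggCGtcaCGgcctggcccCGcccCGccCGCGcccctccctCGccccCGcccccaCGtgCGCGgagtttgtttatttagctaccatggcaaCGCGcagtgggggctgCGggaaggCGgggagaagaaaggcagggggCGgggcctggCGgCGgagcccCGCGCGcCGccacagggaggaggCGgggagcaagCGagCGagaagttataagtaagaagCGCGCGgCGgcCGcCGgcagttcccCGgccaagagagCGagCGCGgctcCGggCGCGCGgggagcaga
Tfcp2l1, chr1:118627695-118627994, plus strand: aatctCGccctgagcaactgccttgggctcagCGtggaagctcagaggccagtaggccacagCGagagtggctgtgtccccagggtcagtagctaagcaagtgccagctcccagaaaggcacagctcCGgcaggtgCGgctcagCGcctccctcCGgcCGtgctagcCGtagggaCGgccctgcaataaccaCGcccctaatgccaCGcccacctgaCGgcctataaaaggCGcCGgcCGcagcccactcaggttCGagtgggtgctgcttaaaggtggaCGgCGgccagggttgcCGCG
Zfp42, chr8:43306960-43307259, minus strand: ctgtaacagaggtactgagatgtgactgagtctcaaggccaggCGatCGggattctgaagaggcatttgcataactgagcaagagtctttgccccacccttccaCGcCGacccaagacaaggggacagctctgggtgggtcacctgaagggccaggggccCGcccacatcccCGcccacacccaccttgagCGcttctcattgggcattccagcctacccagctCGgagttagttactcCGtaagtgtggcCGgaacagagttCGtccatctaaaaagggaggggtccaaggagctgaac
Nr0b1, chrX:86191525-86191824, plus strand: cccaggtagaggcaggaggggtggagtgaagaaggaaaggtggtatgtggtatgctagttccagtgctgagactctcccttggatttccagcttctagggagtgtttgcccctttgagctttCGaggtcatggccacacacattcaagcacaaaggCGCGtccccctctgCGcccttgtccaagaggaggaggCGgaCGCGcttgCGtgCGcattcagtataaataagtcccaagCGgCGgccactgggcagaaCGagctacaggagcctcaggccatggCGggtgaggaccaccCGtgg

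Klf2, Klf4 and Tfcp2l1 had 32, 40 and 21 CpGs in the 300 bases, more than 90.5%, 96.1% and 75.2% of the 32841 promoters examined, whose median was 7. Zfp42 had 11 and Nr0b1 14. The promoter pair of Nr5a2 had 7 and 2 CpGs, and each of the Esrrb pair had 7. This is a description of 7 genes without a test, and DNA methylation was not measured here.

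The same promoters were searched on both strands for short motifs. The KLF motif GGGNGTGG was found in Zfp42, Tfcp2l1 and Nr5a2, that is in 3 of the 9 promoters of the factors and in 17.6% of all promoters. In Tfcp2l1 it occurred at 61 and at 47 bases before the start. The STAT motif TTCNNNGAA was in 1 Esrrb promoter (8.3% of all), the TCF and LEF motif CTTTGA in Nr0b1 (16% of all) and the OCT motif ATGCAAAT in Zfp42 (1.74% of all). The motif AAGGTCA, bound by Esrrb and Nr5a2, was in none of the 9 and in 4.72% of all. No 2 of these matches overlapped. A match says only that the letters are present.

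The 3 Krüppel-like factors are zinc finger proteins that can stand in for one another in ESC self-renewal. Klf2 is a factor of the ground state in mouse ESCs. Its vehicle EpiSC arrays read 4.96, 5.34 and 5.34 (log2 signal), its IWP2 arrays 4.51, 4.56 and 4.62, and its ESC arrays 11.26, 11.39 and 11.37. The 3 groups did not overlap, and the vehicle and IWP2 arrays were 0.34 apart at their closest. With IWP2, Klf2 fell by 0.65 ± 0.0996 (log2, SE), a limma adjusted p of 0.000807, which is 1.57-fold on this scale. The ESC level was 6.13 ± 0.0996 above vehicle and 6.78 ± 0.0996 above IWP2.

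Klf4, a direct target of STAT3 and one of the original reprogramming factors, read 4.96, 4.95 and 5.17 in vehicle EpiSCs and 4.39, 4.53 and 4.10 in IWP2 EpiSCs. In ESCs it read 11.83, 11.79 and 11.81. Again no array of one group reached into another. Klf4 fell by 0.69 ± 0.106 with IWP2 (limma adjusted p = 0.000773), and its other probe set fell by 0.54 ± 0.0697 (adjusted p = 0.000297 over all probe sets). Its ESC level was 6.78 ± 0.106 above vehicle and 7.48 ± 0.106 above IWP2.

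Klf5, which is needed for the trophoblast and the inner cell mass of the blastocyst and also acts in epithelia, showed the largest change with IWP2 among the 10. Vehicle arrays read 7.74, 7.58 and 7.88, IWP2 arrays 6.45, 6.58 and 6.72, and ESC arrays 11.46, 11.56 and 11.47. The vehicle and IWP2 arrays were separated by 0.86 at their closest. Klf5 fell by 1.15 ± 0.09 (SE), 2.22-fold, with a limma adjusted p of 9.89e-06. Of its other 2 probe sets, 1 fell by 1.21 ± 0.0866 (adjusted p = 4.69e-06 over all probe sets), and 1 had group means of 2.86 to 3.05 and was not called in any comparison. The gap from EpiSCs to ESCs was 3.77 ± 0.09 with vehicle and 4.91 ± 0.09 with IWP2.

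Tfcp2l1, a Grainyhead-like factor downstream of both LIF and Wnt signals, was also lower with IWP2. It read 6.00, 5.88 and 5.93 with vehicle, 5.16, 5.22 and 5.34 with IWP2, and 11.66, 11.69 and 11.66 in ESCs. The groups did not overlap. It fell by 0.70 ± 0.0617 with IWP2 (limma adjusted p = 2.26e-05), and ESCs stood 5.73 ± 0.0617 above vehicle and 6.43 ± 0.0617 above IWP2. Its other 2 probe sets stayed at group means of 2.62 to 3.25, under the floor even in ESCs. The mean of all 3 probe sets therefore gave a difference of -0.16 with IWP2 that was not called (adjusted p = 0.0511).

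Of the 4 factors that fell with IWP2, only Klf5 fell by at least 2-fold, as did 2.81% of all genes. The IWP2 and vehicle arrays did not overlap for 5 of the 10, and for 47% of all genes. The median difference of the 10 was -0.07, against 0.03 over all genes. In a test against a minimum log2 difference of 1 none of the 10 was called, Klf5 included. The comparisons of ESCs with either EpiSC group share the ESC arrays, so their values are set side by side and not correlated.

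**Figure D2:**
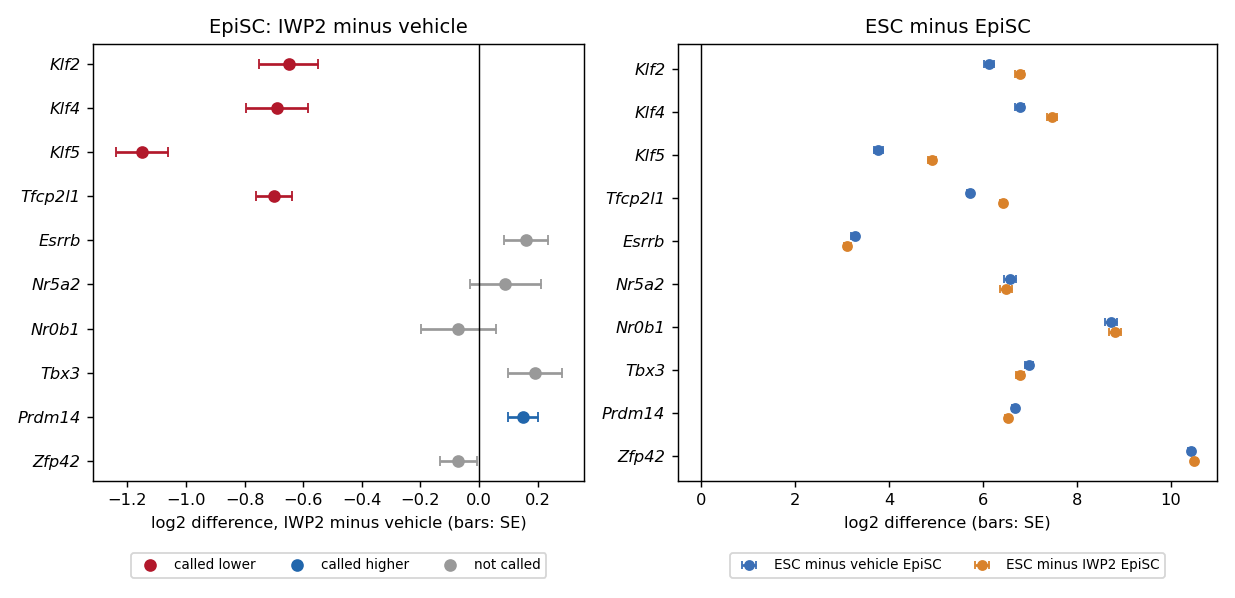
Log2 differences of the 10 factors with standard errors, for IWP2 minus vehicle EpiSCs (left, coloured by call at an adjusted p under 0.05) and for ESC minus each EpiSC group (right). On the left Klf5 lies at -1.15 and Klf2, Klf4 and Tfcp2l1 between -0.70 and -0.65, and the other 6 lie between -0.07 and 0.19. On the right all fitted differences, exact or against a signal under the floor, lie between 3.11 and 10.51.

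Esrrb and Nr5a2 are orphan nuclear receptors that recognise closely related DNA sites, and Esrrb is a target relieved from Tcf7l1. The Esrrb probe set in use read 5.84, 6.08 and 5.87 with vehicle, 6.10, 6.13 and 6.03 with IWP2, and 9.12, 9.27 and 9.23 in ESCs. The EpiSC groups overlapped, and their difference of 0.16 ± 0.0755 (95% interval -0.01 to 0.33) was not called (limma adjusted p = 0.137). The suffix _x_at of this probe set marks probes that may also bind other transcripts. Of the other 2 Esrrb probe sets, the one brightest in ESCs read 3.40 ± 0.0753 with vehicle, 3.41 ± 0.0691 with IWP2 and 10.52 ± 0.0538 in ESCs (SD, n = 3). The remaining one read 3.95 ± 0.174, 4.13 ± 0.126 and 7.31 ± 0.0959. Esrrb was therefore above the floor by 2 probe sets and below it by 1, and the difference from vehicle EpiSCs to ESCs was 3.27 ± 0.0755 or 7.12 ± 0.0668 depending on the probe set. None of the 3 was called with IWP2.

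Nr5a2 read 3.42, 3.63 and 3.91 with vehicle and 3.85, 3.59 and 3.80 with IWP2. In these overlapping groups 1 vehicle array and 2 IWP2 arrays were above the floor. In ESCs it read 10.14, 10.34 and 10.23. The IWP2 difference was 0.09 ± 0.122 (95% interval -0.18 to 0.37, limma adjusted p = 0.608). Its 3 other probe sets gave vehicle means of 3.01 to 4.51, and none was called with IWP2. ESCs stood 6.58 ± 0.122 above vehicle by the probe set in use and 0.79 to 5.97 above by the others.

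Zfp42, which encodes the zinc finger protein Rex1 and is a standard reporter of the naive state, read 2.53, 2.56 and 2.54 with vehicle and 2.40, 2.59 and 2.43 with IWP2, against 13.02, 12.94 and 12.99 in ESCs. Both EpiSC groups were under the floor on every array and overlapped (difference -0.07 ± 0.0622, limma adjusted p = 0.452). Because the EpiSC signal was under the floor, the ESC level is given as at least 614-fold above the EpiSC level.

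Nr0b1 (Dax1), an X-linked orphan receptor that binds Oct4 and Esrrb in ESCs, read 2.83, 3.25 and 3.41 with vehicle and 2.99, 3.14 and 3.14 with IWP2. These arrays overlapped and lay under the floor, and the difference was -0.07 ± 0.127 (95% interval -0.35 to 0.21, limma adjusted p = 0.714). In ESCs it read 11.96, 11.89 and 11.87, at least 291-fold above the EpiSC level. The sex chromosomes differed between the cell types. The Y-linked gene Eif2s3y stood at 9.83 ± 0.0288 in vehicle EpiSCs and at 2.29 ± 0.211 in ESCs (SD, n = 3), and the 360 X-linked genes with a mean above 5.24 had a median of 0.46 for ESC minus vehicle, against -0.03 for 10607 autosomal genes. The part of this shift in the Nr0b1 value was not tested, and the Nr0b1 difference was at least 8.19 on the log2 scale.

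Tbx3, a T-box factor that acts downstream of PI3 kinase signals in ESCs and is also used in endoderm, read 2.55, 2.72 and 2.69 with vehicle, 2.68, 3.04 and 2.82 with IWP2, and 9.64, 9.58 and 9.69 in ESCs. The EpiSC groups overlapped under the floor (difference 0.19 ± 0.0916, limma adjusted p = 0.142), and the ESC level was at least 60.5-fold above the EpiSC level. Another of its 5 probe sets gave a like picture, with 2.74 ± 0.182, 2.81 ± 0.185 and 8.96 ± 0.164 (SD, n = 3). Of the other 3, 1 rose with IWP2, from 3.90 ± 0.0814 to 4.28 ± 0.121 (adjusted p = 0.00361 over all probe sets), and was 1.63 ± 0.0748 higher in ESCs than with vehicle. The remaining 2 were not called with IWP2. One, above the floor in EpiSCs at 4.02 ± 0.134 and 4.07 ± 0.197, was 0.53 ± 0.128 higher in ESCs than with vehicle, and the other, at 2.81 ± 0.0888 and 2.96 ± 0.152, was 0.26 ± 0.0941 higher. The size of the Tbx3 difference therefore depended on the probe set.

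Prdm14, which in ESCs recruits the repressive complex PRC2 to DNA methyltransferase and FGF receptor genes and also acts in germ cells, read 2.44, 2.33 and 2.40 with vehicle, 2.54, 2.56 and 2.54 with IWP2, and 9.09, 9.05 and 9.08 in ESCs. The 3 groups did not overlap, and the EpiSC groups were 0.09 apart at their closest. It was the 1 factor that rose with IWP2, by 0.15 ± 0.0518 (limma adjusted p = 0.0477). Both levels were under the floor on every array, and the call ended under 20 of 23 other settings. The ESC level was at least 40.9-fold above the EpiSC level.

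**Figure D3:**
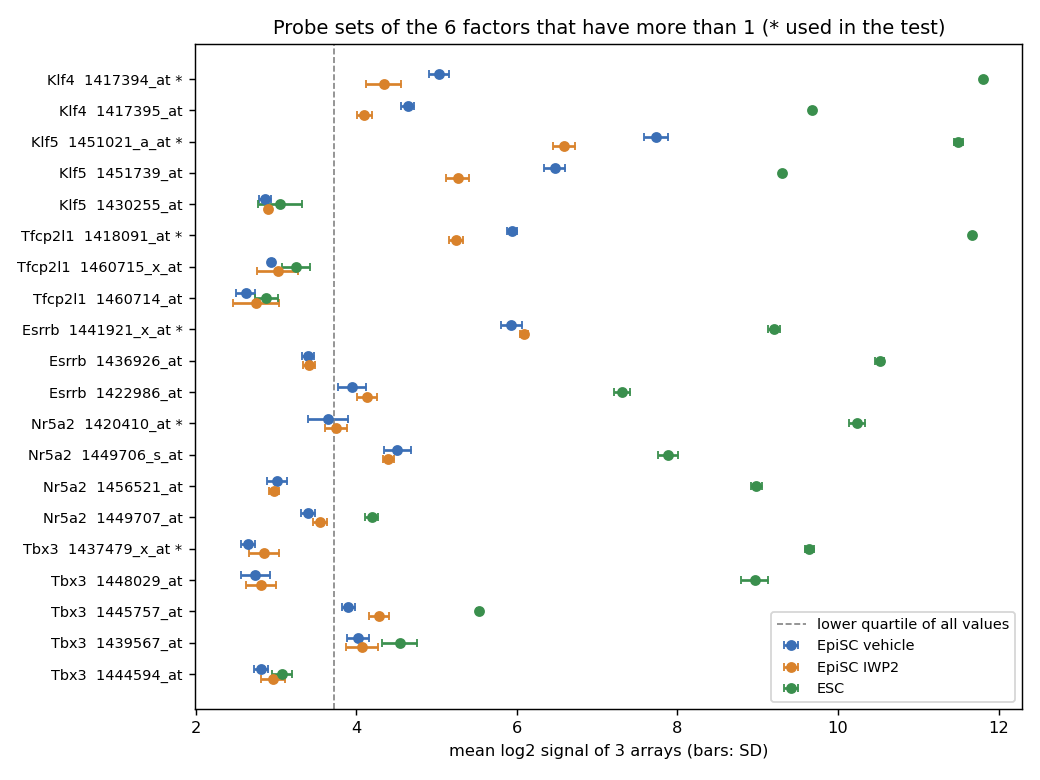
Mean log2 signal with SD of 3 arrays for every probe set of the 6 factors that have more than 1, by group. An asterisk marks the probe set used and the dashed line the lower quartile of all values (3.72). The 3 Esrrb probe sets give vehicle means of 3.40, 3.95 and 5.93, and the 2 lower Tfcp2l1 probe sets lie under the line in all groups.

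For the naive against the primed state, the order of the levels was the same for all 10 factors in one respect: the ESC level was above both EpiSC levels without overlap, as for 41.6% (over vehicle) and 38.2% (over IWP2) of all genes. All 10 were called higher in ESCs by at least 2-fold in both comparisons, where 6.87% of all genes were so called against vehicle and 7.87% against IWP2. The smallest difference was that of Esrrb by the probe set in use, 3.27 against vehicle and 3.11 against IWP2. The differences of Zfp42, Nr0b1, Tbx3 and Prdm14 have only a lower bound, of 9.26, 8.19, 5.92 and 5.35 on the log2 scale, since their EpiSC arrays were under the floor. The medians of the fitted differences were 6.63 and 6.65, against 0.12 and 0.10 over all genes, and 6.02 and 6.46 with those 4 genes at their bounds. For Klf2, Klf4, Klf5 and Tfcp2l1 the order was ESC, vehicle, IWP2. For the other 6 no order of the EpiSC groups is given, since their arrays overlapped or, for Prdm14, were all under the floor.

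Other genes of the naive network were read in the same fit. Beside the counts of each list that follows stand the shares of all genes. Against vehicle 38.7% of all genes were called higher and 27.9% lower in ESCs, and against IWP2 35.2% and 26.9%. With IWP2 16.6% of all genes rose and 16.8% fell. Among 16 measured naive state genes outside the set 3 rose with IWP2, 1 fell and the other 12 passed no call (median 0.03). The growth factor gene Fgf4 rose by 1.89 ± 0.0544 (SE) and Fbxo15, a target of Oct4, by 0.93 ± 0.074, whereas the methylcytosine oxidase gene Tet2 fell by 0.43 ± 0.0584. In ESCs all 16 were higher than with vehicle (median 4.10), among them Dppa5a at 9.62 and Dppa2 at 8.12, the latter against a signal under the floor. They were also higher than with IWP2 in all 16 cases (median 4.24), where the same 2 genes stood at 9.84 and 8.13. Of 8 core pluripotency factors, 3 rose with IWP2, among them Utf1 (0.54) and Nanog (0.47), and 3 fell, among them Sall4 (-0.92) and Zfp281 (-0.19). In ESCs 7 of these 8 were above vehicle and 8 above IWP2, with Nanog at 2.46 and 2.00 and Sox2 at 1.98 and 2.18.

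Of 10 genes of the LIF and STAT3 pathway, 3 rose and 1 fell with IWP2. The LIF receptor gene Lifr fell by 1.76 ± 0.0762 (SE), from 7.57 ± 0.161 to 5.81 ± 0.0053 (SD, n = 3), with a limma adjusted p of 1.47e-07. The kinase gene Pim3 rose by 0.61 and the co-receptor gene Il6st by 0.28. Stat3 itself stood at 6.92 ± 0.352, 6.64 ± 0.0963 and 8.62 ± 0.0838 (SD, n = 3) in vehicle, IWP2 and ESC, and the IWP2 difference was not called (adjusted p = 0.18). Stat3 was named after its values were seen. In ESCs, whose medium held LIF, 8 of the 10 were above vehicle and 7 above IWP2, with Il6st at 2.14 and 1.87, Gbx2 at 2.90 above vehicle and Lifr at 3.68 above IWP2.

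Of 8 Wnt and Tcf regulators, 1 rose and 3 fell with IWP2. Tcf7l1, the repressor of several naive factors, rose from 9.98 ± 0.0346 to 10.43 ± 0.0798 (SD, n = 3, limma adjusted p = 0.00025). Tcf7l2 fell by 2.09 and the Wnt target Sp5 fell by 1.88. Axin2 (-0.16, limma adjusted p = 0.191) and Cdx1 (0, limma adjusted p = 0.999) were not called with IWP2. Against vehicle, ESCs had 3 of the 8 higher, among them Axin2 (1.92) and Cdx1 (1.11), and 4 lower, among them Tcf7l2 (-2.72) and Gsk3b (-1.15). Against IWP2 the counts were also 3 and 4, among them Axin2 (2.09) and Sp5 (2.99) and Gsk3b (-1.31) and Tcf7l1 (-0.50).

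Primed and formative factors did not all move one way with IWP2. Of 14, 6 rose, among them Sox3 (1.37) and Zic5 (0.85), and 4 fell, among them Fgf5 (-2.48) and Lef1 (-1.28). ESCs had 4 of the 14 higher and 10 lower in both comparisons. Against vehicle the leading genes were Tcf15 (2.77), Foxd3 (1.49), Sox4 (-6.17) and Fgf5 (-7.58, under the floor in ESCs), and against IWP2 Tcf15 (2.31), Etv4 (1.98), Sox4 (-6.49) and Otx2 (-3.66).

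Relatives of the 10 factors lay on both sides in ESCs, as did all genes. Of 30 measured paralogues, 15 (50%) were higher and 8 (26.7%) lower in ESCs than with vehicle (median 0.27). Of all genes 38.7% were higher and 27.9% lower. Klf9 stood at 1.77, Klf15 at 2.55, Eomes at -2.91 and Klf7 at -1.07. The counts were again 15 and 8 against IWP2 (median 0.22), where the shares of all genes were 35.2% and 26.9%. Here Klf9 stood at 1.42, Klf15 at 2.26, Klf12 at -1.67 and Klf7 at -1.04. With IWP2, 6 of the 30 (20%) rose, among them Klf12 (0.77) and Prdm10 (0.40), and 5 (16.7%) fell, among them Eomes (-3.62) and Prdm1 (-2.36). The median was -0.01, and 16.6% of all genes rose and 16.8% fell. Of 18 partners and opponents of the factors, 8 rose and 5 fell with IWP2. Cbfa2t2, a co-repressor that binds Prdm14, rose by 0.47, Flcn rose by 0.27, Tet2 fell by 0.43 and Mbd3, a subunit of the NuRD complex, fell by 0.41. In ESCs 10 of the 18 were above and 6 below vehicle, with Tet2 at 3.47, the Esrrb coactivator gene Ncoa3 at 1.79, Dnmt3b at -1.42 and Fgfr2 at -1.11. Against IWP2, 9 were above and 5 below, with Tet2 at 3.89, Ncoa3 at 1.98, Fgfr1 at -1.10 and Dnmt3b at -1.21.

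**Figure D4:**
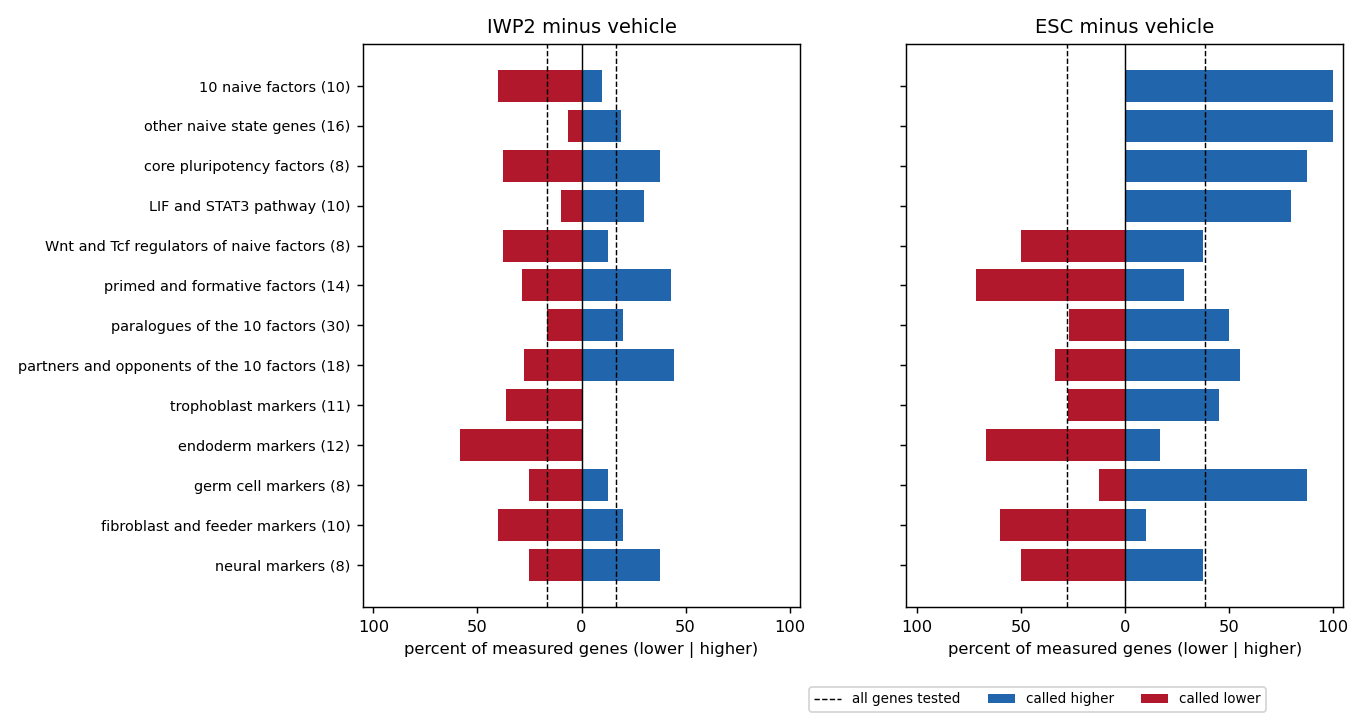
Percent of measured genes of each list called higher (right of 0) or lower (left of 0) for IWP2 minus vehicle and for ESC minus vehicle, with the number measured in brackets and dashed lines for all genes tested (16.8% lower and 16.6% higher with IWP2, 27.9% and 38.7% in ESCs). The 10 factors were called lower with IWP2 in 4 cases and higher in ESCs in all 10.

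Some markers of other cell types were also called lower with IWP2, as were 16.8% of all genes. Of 12 endoderm markers, 7 fell with IWP2, among them Hhex (-4.05) and Foxa2 (-6.07), 0 rose and 5 were not called. The log2 of the summed signal of the 12 was 11.83 to 11.97 with vehicle, 8.11 to 8.21 with IWP2 and 8.16 to 8.28 in ESCs. Sox7 was at the floor in all groups and Cxcr4 with IWP2 and in ESCs. Of 11 trophoblast markers, 4 fell with IWP2, among them Krt7 (-3.19) and Eomes (-3.62, also in the list of paralogues), and 0 rose. The other 7 were not called, among them Cdx2 (0.01), Hand1 (0.06), Plac1 (0.01), Tpbpa (0.18) and Tfap2c (-0.22). The summed signal of the 11 was 9.68 to 9.94 on vehicle, 8.03 to 8.14 on IWP2 and 9.91 to 9.92 on ESC arrays. Elf5 was at the floor throughout. The like sums of vehicle and ESC arrays rest on different genes. Eomes (8.83) and Krt7 (7.22) were the highest of this list with vehicle. In ESCs the highest was Tfap2c (9.25), which is also read as a germ cell marker. Of the 11, 5 were higher in ESCs than with vehicle (Tfap2c at 4.25) and 3 lower (among them Krt7 at -3.02 and Eomes at -2.91). Of 10 fibroblast and feeder markers, 4 fell with IWP2, among them Col3a1 (-2.30) and Postn (-1.75), and 2 rose, Thy1 by 0.72 and Dcn by 0.78. The other 4 were not called. The summed signal of the 10 was 12.39 to 12.70 on vehicle, 12.00 to 12.12 on IWP2 and 11.40 to 11.46 on ESC arrays. Vim (11.54, 11.57 and 11.28) and Acta2 (11.16, 9.76 and 6.47) were the highest of this list in each group, so the sum rests mainly on them. Col1a1 stood at 4.42, 4.61 and 4.49 and was not called in any comparison. The presence of such other cells and their part in the falls of the 4 factors were not tested. In ESCs 8 of the 12 endoderm markers were lower than with vehicle (Hhex at -3.54, Foxa2 at -5.72) and 2 higher (Afp at 0.56, Ttr at 0.25), where the 10 factors were all higher. Against IWP2 the counts were 1 lower (Dab2 at -1.78) and 4 higher (among them Hhex at 0.51 and Afp at 0.47). The actin control, whose 3′ signal exceeds its 5′ signal more in degraded RNA, had a log2 difference of 0.53 to 0.59 on vehicle, 0.64 to 0.69 on IWP2 and 0.64 to 0.66 on ESC arrays. The like difference of the Gapdh control was -0.06 to -0.02, -0.03 to 0 and -0.04 to 0 in the same order. The part of RNA quality in the differences above was not tested.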

How the data were processed

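RNA was read on Affymetrix mouse expression arrays, per the labels. The authors deposited log2 values for 45101 probe sets, and the submitters' processing notes name RMA (background correction, quantile normalization and a summary per probe set) and limma, without versions. Quantile normalization hides a change of total RNA per cell. Arrays have no read depth, and their number, 3 a group, limits the precision. Samples with Wnt3a after IWP2, which the treatment protocol mentions, are not analysed here.

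Of the probe sets 34945 had 1 gene symbol, 932 several, 9160 none, and 64 were controls. Single-symbol probe sets gave 18193 genes, 1 probe set each. Group means were fitted to all 9 arrays (R 4.3.3, limma 3.58.1, lmFit and eBayes, 9.58 degrees of freedom after moderation). Tests were two-sided, adjusted by Benjamini-Hochberg over all genes, and called under 0.05. Checks of further probe sets were adjusted over all 34945. Against a gene at the floor on all 3 arrays, a fold is given as at least the ESC mean over the floor.

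The members and lists were chosen with earlier results of these data known. All 10 members are named, and of each other list up to 2 called genes with the smallest p in each direction. Alternatives covered the probe set, low-signal filters, an offset, normalization, variance models, arrays in the fit, a replicate block, stricter calls, leaving out each array, and other floors. Same-numbered replicates did not deviate together (correlations -0.06 to 0.05). This cannot show whether they were prepared together, and the main fit used no pairing.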

Additional observations from a re-analysis of the deposited data

How the results depend on the processing

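All 10 factors stayed at least 2-fold higher in ESCs, and called, under every alternative that tested them. The lowest differences under these, 2.10 (Tfcp2l1) and 2.26 (Klf5) from vehicle, came from the mean of all probe sets of a gene. In the alternative with every probe set tested on its own, each factor was still read by its probe set in use. Some further probe sets were less than 2-fold higher in ESCs than with vehicle. They belonged to Klf5 (0.19, not called), Tfcp2l1 (0.26, not called, and 0.32), Tbx3 (0.53 and 0.26) and Nr5a2 (0.79). Of the 24 alternatives each for Klf2, Klf4 and Klf5 the IWP2 fall lost its call only in the test against a minimum log2 difference of 1, and that of Tfcp2l1 also as the mean of its probe sets. Leaving out each array in turn kept 4 factors lower with IWP2 (4 to 4) and 10 higher in ESCs (10 to 10), with 4949 to 5965 genes called in all for IWP2 minus vehicle, 11077 to 12115 for ESC minus vehicle and 10565 to 11323 for ESC minus IWP2. With a replicate block, 5754 genes were called for IWP2 minus vehicle and the same 4 factors fell.

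With every probe set tested on its own 21764 (ESC minus vehicle), 20510 (ESC minus IWP2) and 10168 (IWP2 minus vehicle) were called, against 12123, 11298 and 6094 genes. The test against a minimum log2 difference of 1 called 2148, 2279 and 345 genes and 0 factors lower with IWP2, and an adjusted p under 0.01 called 3886 genes for IWP2 minus vehicle. Differences not called changed sign for Nr0b1 (0.05 with array weights and 0.05 without vehicle replicate 3, range -0.24 to 0.05 over arrays left out) and Nr5a2 (-0.02 without vehicle replicate 1, range -0.02 to 0.22). Esrrb was called higher with IWP2 without vehicle replicate 2 (0.23) and with array weights (0.20), and Tbx3 without IWP2 replicate 1 (0.28) and with array weights (0.27). The cause was not tested. Of 10 factors the number above the floor in EpiSCs, 5 and 5 with vehicle and IWP2, became 3 and 2 with the median of all values as the floor, 2 and 2 when all probe sets of a gene had to be above it, and 3 with IWP2 for the olfactory receptor floor. It rose to 7 and 7 when any probe set sufficed and to 6 with IWP2 by the mean of the 3 arrays. The array floor limits differences of genes at low signal.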

Other observations

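Germ cell and neural markers, which share regulators with the naive and the primed state, were read beside the 10 factors. Of 8 germ cell markers, 7 were higher in ESCs than in vehicle EpiSCs, among them Mael (4.86) and Dazl (4.81), both under the floor in EpiSCs, and Prdm1, a partner of Prdm14 in germ cell specification, was lower (-0.95). All 8 were higher than with IWP2, where Mael stood at 4.81 and Dazl at 4.79. Mael and Dppa3 were already counted among the naive state genes outside the set, and Tfap2c among the trophoblast markers, so these counts are not separate. With IWP2 the receptor gene Kit fell by 3.10 ± 0.117 (SE) and Prdm1 fell by 2.36 ± 0.183, and the RNA helicase gene Ddx4 rose by 0.85 ± 0.0954, from a mean of 2.78 to one of 3.62, under the floor value of 3.72. The ESC level of Kit was 9.98 ± 0.0616, above its vehicle level of 8.60 ± 0.202 and its IWP2 level of 5.49 ± 0.198 (SD, n = 3).

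Of 8 neural markers, 3 rose with IWP2, among them Ncam1 (0.89) and Tubb3 (0.73), and 2 fell, Hesx1 (-5.45) and Six3 (-1.70). Against vehicle, ESCs had 3 higher, with Ncam1 at 0.61 and Tubb3 at 0.45, and 4 lower, with Hesx1 at -4.44 and Six3 at -1.58. The noncoding RNA gene Xist, read because of the sex-chromosome difference and named after its values were seen, was at 5.14 ± 0.204 with vehicle, 6.73 ± 0.315 with IWP2 and 9.07 ± 0.0706 in ESCs (SD, n = 3).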
